A study of Danio rerio with 10 samples.

Results

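Whole zebrafish embryos lacking both dact1 and dact2 were compared with wildtype embryos at the beginning of somite formation. The comparison used 7 of the 10 embryos of the study, chosen by the genotype in the sample labels: 3 dact1-/-;dact2-/- embryos, called dact1/2 mutants, and 4 wildtype embryos. The other 3 embryos were gpc4-/- mutants, which lack glypican 4, a heparan sulfate proteoglycan of the cell surface, and they were used only to set the dact1/2 mutants beside a second mutant. Each embryo was dissociated on its own into single cells and gave 1 library of a droplet-based 3′ assay, so that the embryo was the replicate. Unique molecular identifiers (UMIs), each standing for 1 captured RNA molecule, were summed over all cells of an embryo, and 11871 cells of 16057 droplets in the 7 embryos passed quality control (16837 of 21980 in all 10).

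The labels give the strain of all embryos as Tubingen, the stage as 3 somites and no treatment, whereas the methods give 4 somites and either Tubingen or AB as the strain. Both dact alleles were made with CRISPR/Cas9 and carry a premature stop codon. Mutant embryos were picked by their truncated body axis and not by genotyping, so a mutant embryo was by definition one with a visible defect. The labels give no clutch, collection day or sequencing run.

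Dact proteins are adapters that bind Dishevelled, the hub from which Wnt signals pass either to beta-catenin or to the noncanonical, planar cell polarity branch. The noncanonical branch orients cells during gastrulation and drives convergent extension, the narrowing and lengthening of the body axis, and embryos in which it fails are short and broad. Wnt11 ligands, Frizzled receptors, Vangl2 and glypican 4 act in this branch in zebrafish. At the start of somite formation the embryo holds a neural plate, notochord, presomitic mesoderm and the first somites, whose innermost adaxial cells become slow muscle, together with the precursors of blood, vessels and heart.

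The 7 embryos held between 12129138 and 26475500 UMIs after quality control, with 13205839 to 20468237 in wildtype and 12129138 to 26475500 in mutants. Cells held a median of 11217.5, 8493, 4229.5 and 11255 UMIs in wildtype replicates 1 to 4, and of 5914, 4811 and 5338.5 UMIs in the mutants. This difference gave p = 0.171 in a two-sided exact permutation test over the 7 embryos. The share of droplets kept ranged from 39.7% to 89.8% in wildtype and from 83.5% to 85.5% in mutants, and no pair of libraries had more than 3 cell barcodes in common. Levels are given as CPM, the share of an embryo's UMIs on a scale of 1000000, scaled with TMM factors over the 10 embryos.

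Wildtype replicate 1 stood apart from the other wildtype embryos. Across 14531 genes its log2 CPM correlated with those of wildtype replicates 2 to 4 at a mean Pearson's r of 0.951, and with those of the mutants at 0.953, whereas wildtype replicates 2 to 4 correlated among themselves at 0.990 and with the mutants at 0.982 to 0.984. Genes are not independent replicates, and these values are a description. Patterning genes of the gastrula were much higher in it: gsc, which marks the organizer and prechordal plate, stood at 17.4 CPM against 1.24 to 1.74 in the other wildtype embryos, and the ventral repressors vox and ved stood at 362 against 72.8 to 101 and at 263 against 41.2 to 72.1. The caudal factor cdx4 stood at 811 against 301 to 397. These 4 genes were chosen after their values were seen. The part of developmental stage in the position of this embryo was not tested. The tests were therefore run with all 4 wildtype embryos and against wildtype replicates 2 to 4 alone, and a gene or list value with no comparison named is against replicates 2 to 4.

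dact1 RNA was lower in the mutants and dact2 RNA was not. The level of dact1 was 6.26, 6.15, 5.83 and 5.28 CPM in wildtype replicates 1 to 4 and 2.27, 2.37 and 2.91 CPM in the mutants. All 3 mutants lay below all 4 wildtype embryos, with means of 2.52 ± 0.35 CPM (SD, n = 3) and 5.88 ± 0.44 CPM (SD, n = 4), and the difference of -3.36 CPM gave p = 0.0286 in a two-sided exact permutation test, the smallest p that 4 embryos against 3 allow. In the edgeR quasi-likelihood fit over all genes, dact1 fell by 1.21 on the log2 scale against wildtype replicates 2 to 4 (SE 0.18, Benjamini-Hochberg adjusted p = 0.0228). With all 4 wildtype embryos the log2 fold change was -1.23 with an adjusted p of 0.168, which missed the threshold of 0.1, whereas the DESeq2 Wald test gave 0.000263.

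The level of dact2 was 70.9 CPM in wildtype replicate 1 and 46.6, 38.4 and 43.1 CPM in replicates 2 to 4, against 39.1, 49.8 and 51.7 CPM in the mutants. The groups overlapped, and the log2 fold change of 0.13 (SE 0.13) against wildtype replicates 2 to 4 turned to -0.093 with all 4 wildtype embryos (adjusted p = 0.614 and 0.959 in edgeR). UMIs of a 3′ assay count transcripts whether or not they carry the stop codon, so neither level checks the genotype. The gpc4 mutants held dact1 at 5.03 to 6.69 CPM and dact2 at 50.5 to 53.8 CPM.

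**Figure D1:**
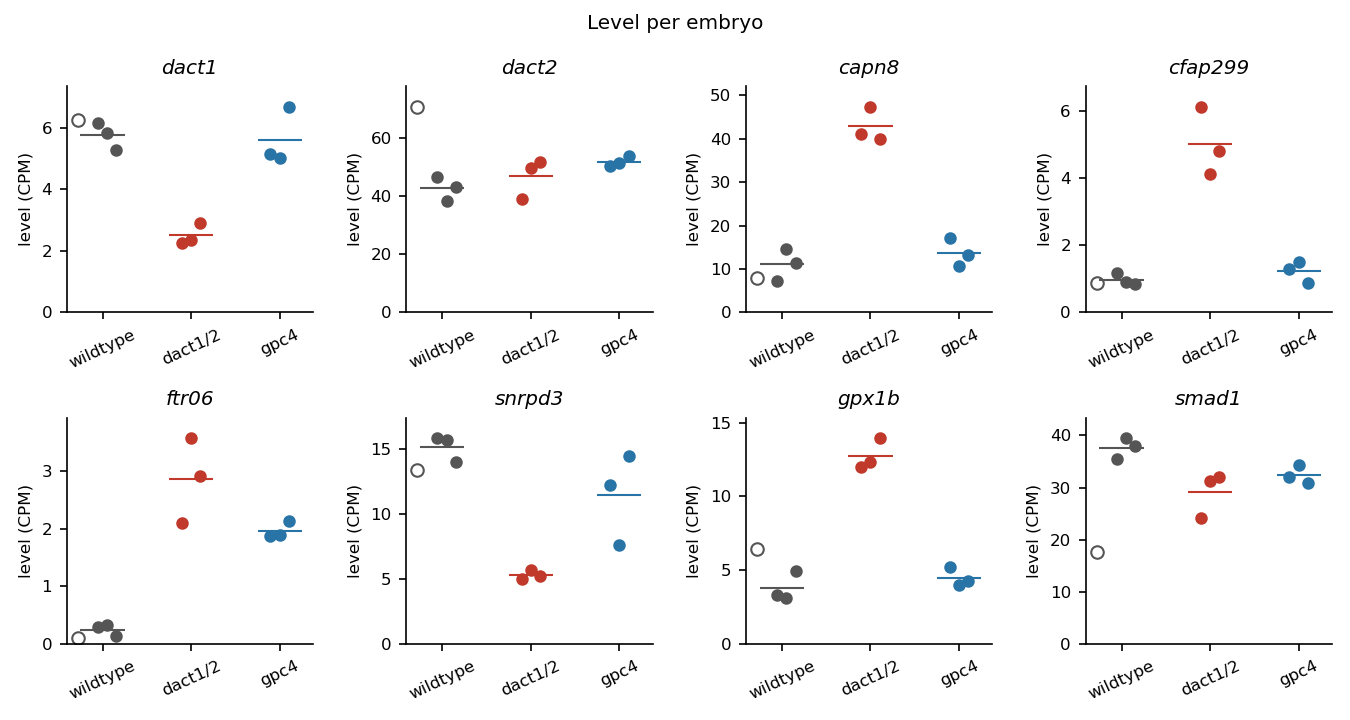
Level of 8 genes in each embryo, in CPM on a linear axis that starts at 0, for wildtype (grey), dact1/2 mutant (red) and gpc4 mutant (blue) embryos. The open circle is wildtype replicate 1 and the horizontal bars are means of 3 embryos (wildtype replicates 2 to 4 in the first group). The 3 dact1/2 mutants sit at 2.27 to 2.91 CPM for dact1, below every other embryo, and at 40.0 to 47.4 CPM for capn8, above every other embryo, while their dact2 levels overlap with wildtype.

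With all 4 wildtype embryos, 4 genes of 14531 were called (0.0275%), of which 3 were higher and 1 was lower in the mutants. To be called, a gene had to reach an adjusted p below 0.1 in the edgeR fit over all genes and differ by more than 0.58 on the log2 scale in either direction. The higher genes were capn8, a calpain (calcium-dependent cysteine protease), cfap299, which encodes a cilia- and flagella-associated protein, and ftr06, a member of the finTRIM family of fish TRIM proteins. The lower gene was snrpd3, an Sm core protein of the spliceosomal small nuclear ribonucleoproteins. All 4 were also called against wildtype replicates 2 to 4. These calls sit near the threshold: of the 4, capn8 alone was called without wildtype replicate 3, and no gene at all without wildtype replicate 2 or 4 or without any 1 mutant.

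capn8 (ENSDARG00000055715, chromosome 22) stood at 7.88 CPM in wildtype replicate 1, at 7.16, 14.7 and 11.3 CPM in replicates 2 to 4 and at 41.1, 47.4 and 40.0 CPM in the mutants. The lowest mutant lay far above the highest wildtype embryo, and the mean was 4.17 times that of the 4 wildtype embryos (log2 fold change 2.06, SE 0.24, edgeR adjusted p = 0.0726). Against wildtype replicates 2 to 4 the log2 fold change was 1.95 with an adjusted p of 0.00632. These levels rest on 2408 UMIs in the mutants and 659 in the 4 wildtype embryos.

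cfap299 (ENSDARG00000088753, chromosome 5) held 0.84 to 1.16 CPM in the 4 wildtype embryos and 6.12, 4.1 and 4.8 CPM in the mutants. Here wildtype replicate 1, at 0.89 CPM, lay inside the range of the other wildtype embryos. The log2 fold change was 2.40 (SE 0.24, edgeR adjusted p = 0.0509) with all 4 and 2.38 (adjusted p = 0.00622) with replicates 2 to 4, from 284 UMIs in mutants and 61 in wildtype. ftr06 (ENSDARG00000053450, chromosome 2) was scarce in wildtype, with 0.10, 0.29, 0.33 and 0.13 CPM and 13 UMIs in all, and stood at 2.1, 3.57 and 2.91 CPM in the mutants, with 157 UMIs. Its log2 fold change was 3.76 (SE 0.43, edgeR adjusted p = 0.0726) with all 4 wildtype embryos and 3.49 (adjusted p = 0.00642) with replicates 2 to 4. snrpd3 (ENSDARG00000013800, chromosome 8) went from 13.4, 15.8, 15.7 and 14.0 CPM in wildtype to 5.01, 5.65 and 5.22 CPM in the mutants. It fell by 1.48 (SE 0.14, edgeR adjusted p = 0.0509) and by 1.51 (adjusted p = 0.00184) on the log2 scale in the 2 comparisons.

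Against wildtype replicates 2 to 4, 276 of 14308 genes were called (1.93%), 134 higher (0.937%) and 142 lower (0.992%) in the mutants. The median log2 fold change over all genes was -0.02 here and -0.03 with all 4 wildtype embryos. Of the 276 genes, 52 differed by more than 2 on the log2 scale (19 higher and 33 lower), 143 by 1 to 2 and 81 by less than 1. Most were scarce: the mean of the higher group lay under 1 CPM for 6, between 1 and 10 CPM for 165 and at 10 CPM or more for 105. At an unadjusted p under 0.05 the shares of all genes were 18.1% against wildtype replicates 2 to 4 and 7.16% with all 4 wildtype embryos. The count depended on single embryos, at 105 without wildtype replicate 2, 124 without replicate 3, 154 without mutant replicate 3 and 784 without mutant replicate 2.

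Where wildtype replicate 1 stood for these genes differed by gene. Of the 134 higher genes it lay at or past the nearest mutant in 50, between the groups in 28, within the range of wildtype replicates 2 to 4 in 19 and on the far side of them in 37. Of the 142 lower genes the numbers were 83, 27, 8 and 24. All 276 had groups that did not overlap in 3 embryos against 3, as 24.1% of all genes did, and 143 still did not overlap once wildtype replicate 1 was counted. Over all genes tested, 3443 did not overlap in 3 embryos against 3, and 1466 (10.1%) with all 4 wildtype embryos. The 10.1% is not a like reference for the 143, since the 276 were already apart in 3 embryos against 3. With all 4 wildtype embryos 271 of the 276 log2 fold changes had the same sign and 181 had an unadjusted p under 0.05, and the median of their absolute values was 1.12 instead of 1.3.

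**Figure D2:**
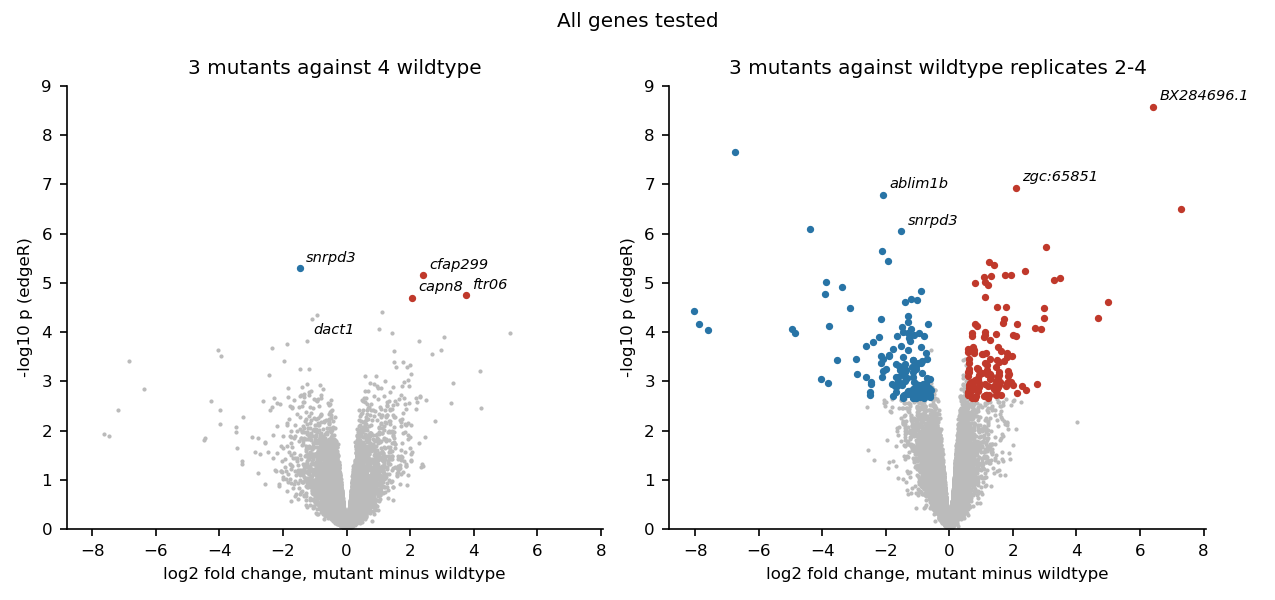
Log2 fold change of dact1/2 mutants over wildtype (horizontal) against -log10 of the unadjusted edgeR p (vertical) for every gene tested, with all 4 wildtype embryos in one panel and with wildtype replicates 2 to 4 in the other. Called genes are red where higher and blue where lower in mutants. The panel of all 4 wildtype embryos holds 4 called genes and the other panel 276.

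Among the 12 higher genes with the smallest p against wildtype replicates 2 to 4, gpx1b and lix1l were also set apart from wildtype replicate 1. gpx1b, a glutathione peroxidase that reduces hydrogen peroxide, stood at 6.45 CPM in wildtype replicate 1, at 3.33, 3.14 and 4.96 CPM in replicates 2 to 4 and at 12, 12.3 and 14.0 CPM in the mutants (log2 fold change 1.74, SE 0.19, edgeR adjusted p = 0.00632, and 1.5 with an adjusted p of 0.241 with all 4). lix1l stood at 10.6 CPM in wildtype replicate 1, at 8.53, 9.23 and 8.43 CPM in replicates 2 to 4 and at 16.7, 19.5 and 19.7 CPM in the mutants (1.09, SE 0.12, adjusted p = 0.00642, and 1.01 with 0.153). All 3 mutants exceeded all 4 wildtype embryos for both genes, as they also did for rex1bd (37.7 CPM in wildtype replicate 1, 21.5 to 22.2 in the others and 42.9 to 59.6 in mutants), for si:ch1073-164k15.3 (16.2, 6.88 to 9.59 and 20.1 to 23.9) and for si:zfos-169g10.3 (11.1, 17.4 to 24 and 45.0 to 56.3). Their log2 fold changes against wildtype replicates 2 to 4 were 1.26, 1.41 and 1.3. With all 4 wildtype embryos they were 1.00, 1.09 and 1.48 (edgeR adjusted p = 0.404, 0.411 and 0.198). None of these, nor gpx1b or lix1l, was called there.

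For 3 others wildtype replicate 1 lay above every mutant embryo. zgc:65851 stood at 4.63, 4.26 and 4.12 CPM in wildtype replicates 2 to 4 and at 20.5, 17.2 and 17 CPM in the mutants, but at 53.9 CPM in wildtype replicate 1. Its log2 fold change went from 2.08 (edgeR adjusted p = 0.000555) to 0.10 (0.992) with that embryo included. gpr19, which encodes an orphan G protein-coupled receptor, stood at 0.59 to 1.03 CPM and 4.83 to 7.45 CPM, with 15.6 CPM in wildtype replicate 1, and went from 3.05 to 0.46. si:ch73-144d13.4 gave 2 UMIs in wildtype replicates 2 to 4 and 484 in the mutants, a ratio of 194 at equal depth with an exact 95% interval of 53.4 to 1605, and 568 UMIs, or 28 CPM, in wildtype replicate 1. BX284696.1 stood at 0.06 to 0.14 CPM in wildtype replicates 2 to 4, at 1.67 CPM in replicate 1 and at 9.03, 11.4 and 10.2 CPM in the mutants, so that the mutants were highest in either comparison (log2 fold change 6.42 with an edgeR adjusted p of 3.8e-05, and 4.19 with 0.298).

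Of the 12 lower genes with the smallest p, snrpd3, ablim1b, hist1h2a3 and nfybb lay lower in all 3 mutants than in all 4 wildtype embryos. So did naxe and si:dkey-9c18.3, but wildtype replicate 1 lay near the mutants for both. It stood at 4.24 CPM against at most 3.90 CPM in mutants for naxe, and at 0.20 against at most 0.10 CPM for si:dkey-9c18.3. ablim1b, an actin-binding LIM protein, stood at 8.37 CPM in wildtype replicate 1, at 15.3, 19.5 and 18.9 CPM in replicates 2 to 4 and at 3.90, 4.54 and 4.11 CPM in the mutants, and it fell by 2.09 on the log2 scale (SE 0.15, edgeR adjusted p = 0.000572, and by 1.89 with 0.178 with all 4). hist1h2a3, a histone H2A gene, stood at 95.8, 96.7, 90.4 and 80.6 CPM in wildtype and at 43.2, 52.4 and 48.1 CPM in the mutants, and fell by 0.89 (adjusted p = 0.0084). H2A genes are near-identical copies of each other, so reads may be split among them and this value is uncertain. nfybb, which encodes subunit B of the CCAAT-binding factor NF-Y, was tight within groups, with 12.4, 11.3, 11.1 and 11.2 CPM in wildtype and 5.52, 5.70 and 5.14 CPM in the mutants, and fell by 1.03 (adjusted p = 0.0111, and by 1.07 with 0.111 with all 4).

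The 8 lower genes besides snrpd3, ablim1b, hist1h2a3 and nfybb had wildtype replicate 1 at, near or below the level of the mutants. adgra1a, an adhesion G protein-coupled receptor, stood at 4.05, 6.88 and 8.24 CPM in wildtype replicates 2 to 4, at 0.34, 0.34 and 0.17 CPM in the mutants and at 0.10 CPM in wildtype replicate 1. The eye field transcription factor six6b went from 2.82, 2.36 and 1.80 CPM to 0.13, 0.05 and 0.34 CPM, with no UMI in wildtype replicate 1. naxe, an epimerase that repairs NAD(P)HX, went from 11.8 to 15.3 CPM down to 2.48 to 3.90 CPM, and the ATP-gated channel gene p2rx4b from 8.97 to 13.2 CPM down to 2.74 to 3.51 CPM, with 4.24 and 2.91 CPM in wildtype replicate 1. arhgef10la went from 15 to 19.1 CPM down to 6.76 to 8.56 CPM, below which wildtype replicate 1 lay at 1.23 CPM. si:dkey-9c18.3 was nearly absent from the mutants, with 4 UMIs against 380 in wildtype replicates 2 to 4, and so it was from wildtype replicate 1, also with 4 UMIs. si:ch73-205h11.1 and si:dkey-56d12.4 fell by 3.87 and 3.39 on the log2 scale and stood at 0.10 CPM each in wildtype replicate 1. Of all called genes, 12 had a mean under 0.5 CPM in the mutants and at least 2 CPM in wildtype replicates 2 to 4, and 10 of these were also under 0.5 CPM in wildtype replicate 1. In the other direction, 8 were near absent by the same limits in wildtype replicates 2 to 4, and 3 of these in wildtype replicate 1 as well.

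**Figure D3:**
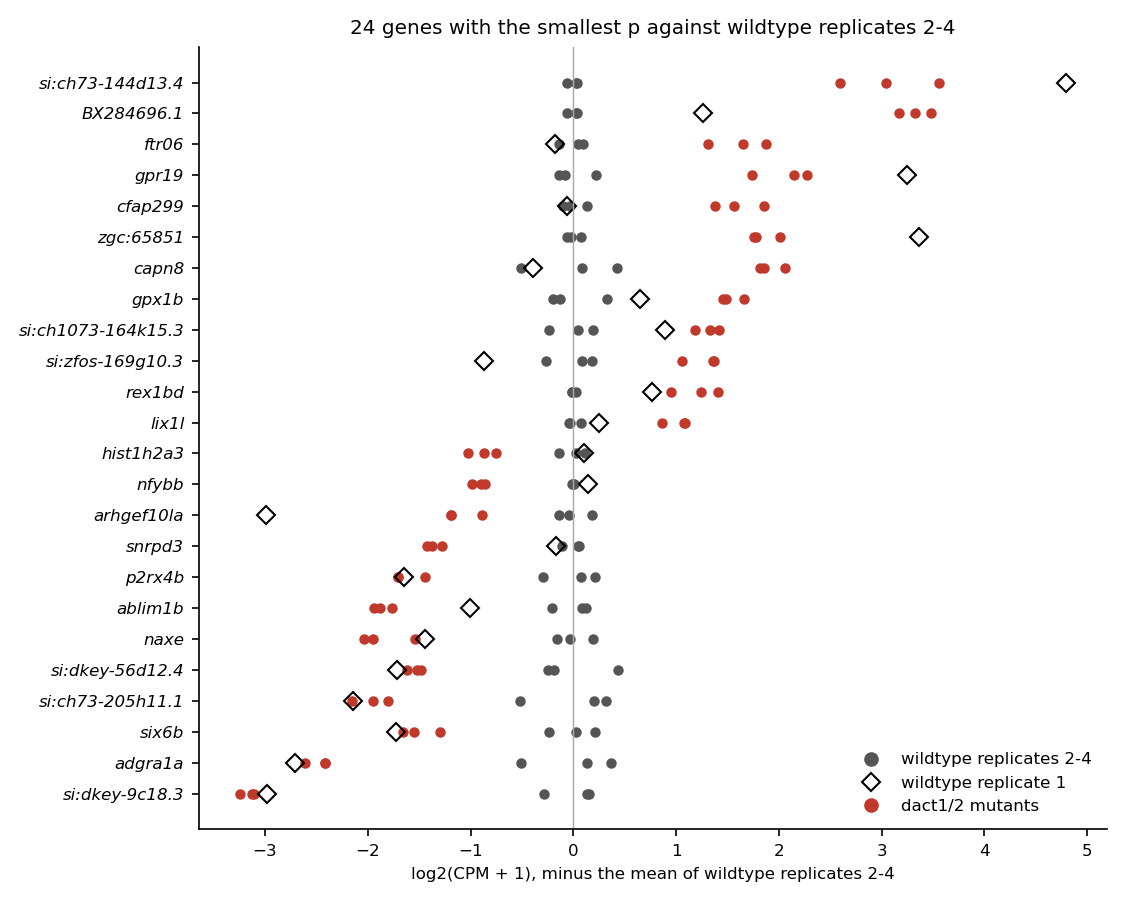
Log2 (CPM + 1) of the 12 higher and 12 lower genes with the smallest p against wildtype replicates 2 to 4, in each embryo, minus the mean of wildtype replicates 2 to 4. Filled points are wildtype replicates 2 to 4 (grey) and dact1/2 mutants (red), and the open diamond is wildtype replicate 1. The diamond lies on the side of the mutants for genes such as zgc:65851 (53.9 CPM) and adgra1a (0.10 CPM) and near the wildtype points for cfap299 (0.89 CPM) and nfybb (12.4 CPM).

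No gene was called in the main edgeR fits in 8 lists of signalling pathways that act in gastrulation. Of all genes, 1.93% were called against wildtype replicates 2 to 4. With all 4 the share was 0.0275%, at which no call is to be looked for in lists of this size. The lists (Dishevelled and the beta-catenin destruction complex, noncanonical Wnt and planar cell polarity, canonical Wnt targets, BMP, TGF-beta and Nodal, hedgehog, FGF, retinoic acid, and the segmentation clock) held 163 genes tested against wildtype replicates 2 to 4 and 164 with all 4. Of these, 22 and 4 had an unadjusted p under 0.05 in edgeR, beside 18.1% and 7.16% of all genes. The smallest adjusted p in edgeR was 0.128 and 0.58. The log2 fold changes against wildtype replicates 2 to 4 ranged from -0.91 to 1.14 with a median of 0.01, beside -0.02 over all genes. The DESeq2 Wald test, which called 3.19% of all genes in this comparison and 1.00% with all 4 wildtype embryos, called 3 of them: the clock gene her7 higher (0.70, adjusted p = 0.0167), the hedgehog ligand shhb higher (1.14, 0.0762) and the FGF feedback inhibitor spry1 lower (-0.90, 0.0964). In edgeR, her7 was also called without the filter on low counts (adjusted p = 0.0501). shhb was called in edgeR once the 4th cell criterion of the methods, left out of the main fits, was added (adjusted p = 0.0856). Without mutant replicate 2, her7, vox, ved and the retinol carrier gene rbp4 were called in edgeR, all higher (adjusted p 0.0197 to 0.0724).

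Members of the Wnt pathways differed in whether the groups overlapped, and the ranges below leave out wildtype replicate 1. The Dishevelled gene dvl2 stood at 67.7 to 72.5 CPM in wildtype replicates 2 to 4 and at 66.6 to 72.9 CPM in the mutants, and beta-catenin (ctnnb1) at 499 to 533 and 510 to 544 CPM. axin2, a feedback target of canonical Wnt signalling, stood at 48.5 to 50.2 and 48.5 to 55.7 CPM. Among noncanonical genes, the receptor gene fzd7a stood at 96.1 to 103 against 114 to 128 CPM (0.25, edgeR adjusted p = 0.201), the ligand gene wnt11 at 31.5 to 35.6 against 38.3 to 55.4 CPM (0.39, 0.228), and daam1a, a formin that acts downstream of Dishevelled, at 9.04 to 11.1 against 6.51 to 7.96 CPM (-0.46, 0.172). The groups did not overlap for these 3 genes, which is also the case for 24.1% of all genes. Of 28 noncanonical genes tested, 3 were higher and 1 lower at an unadjusted edgeR p under 0.05. With all 4 wildtype embryos the counts were 1 and 0, beside 7.16% of all genes instead of 18.1%. The core polarity gene vangl2 stood at 50.3 to 54.8 against 46.2 to 50.7 CPM, and gpc4 at 47.9 to 55.7 against 46.9 to 56.5 CPM.

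Further effectors and targets did not overlap between wildtype replicates 2 to 4 and the mutants, though none was called, and those given here were chosen after their values were seen. The canonical Wnt target sp5a stood at 26.1 to 33.3 CPM in wildtype replicates 2 to 4 and at 39.1 to 43.1 CPM in the mutants (log2 fold change 0.41, edgeR adjusted p = 0.135), and the nuclear effector lef1 at 32.4 to 35.6 and 25.7 to 31.0 CPM (-0.26, 0.252). The hedgehog effector gli1 stood at 17.6 to 17.9 and 13.2 to 14.6 CPM (-0.37, 0.137), and the BMP target id3 at 199 to 206 and 232 to 239 CPM (0.22, 0.198). Of 19 canonical Wnt targets tested, 3 were higher and 2 lower at an unadjusted edgeR p under 0.05. With all 4 wildtype embryos these counts were 0 and 1, beside 7.16% of all genes instead of 18.1%. They went from 4 and 3 to 0 and 1 in the BMP, TGF-beta and Nodal list. In the hedgehog list they went from 1 and 2 to 0 and 0. Summed canonical Wnt targets stood at 1966 CPM in wildtype replicate 1 and at 1024 to 1167 CPM in the others. The mutants stood at 1134 to 1290 CPM. smad1, a transducer of BMP signals, stood at 35.6, 39.5 and 37.9 CPM in wildtype replicates 2 to 4, at 17.7 CPM in replicate 1 and at 24.1, 31.3 and 32.1 CPM in the mutants (-0.37, 0.184, and -0.16 with 0.934 with all 4). Frizzled genes outside the lists were called against wildtype replicates 2 to 4, and they were chosen after their values were seen. fzd6 went from 1.88 to 1.96 CPM up to 3.60 to 5.01 CPM, with 9.80 CPM in wildtype replicate 1 (log2 fold change 1.13, edgeR adjusted p = 0.0514, and 0.077 with 0.991 with all 4). fzd8b went from 15.9 to 23.1 CPM down to 9.16 to 13.9 CPM, with 51.6 CPM in wildtype replicate 1 (-0.84, 0.0927, and -1.34 with 0.539).

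Of 26 muscle genes tested, 4 were called higher against wildtype replicates 2 to 4, and these calls were not stable. A positive log2 fold change was found for 19 of the 26, beside 47.5% of all genes. None was called lower (background of calls 1.93%). At an unadjusted edgeR p under 0.05, 10 were higher, beside 18.1% of all genes in either direction. The median log2 fold change was 0.34, and 0.18 when scaled by library totals. That scaling also moved the median of all genes, from -0.02 to -0.16. The called genes encode parts of the sarcomere: the myosin light chain gene myl13, the actin genes actc1b and acta1b, and the tropomyosin gene tpm2. With all 4 wildtype embryos none was called in edgeR, 10 were again higher at an unadjusted p under 0.05, and the median was 0.47. Of the 26 genes, 23 were positive there, beside 45.4% of all genes. The DESeq2 Wald test called 1.00% of all genes in that comparison, and its calls included the list members acta1a, acta1b and actc1b. These names come from an alphabetical part of its calls and are not a count of the list members it called. In whole-embryo sums, more cells of a type and more RNA per cell cannot be told apart, and this holds for every cell type below.

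myl13 stood at 4.43 CPM in wildtype replicate 1, at 30.1, 55.7 and 23.7 CPM in replicates 2 to 4 and at 145, 80.7 and 97.5 CPM in the mutants (log2 fold change 1.57, SE 0.32, edgeR adjusted p = 0.0671, and 1.93 with 0.562 with all 4). actc1b stood at 15.6, then 47.3, 53.6 and 29.9, and at 194, 73.0 and 123 CPM in the mutants (1.59, SE 0.34, adjusted p = 0.0784, and 1.84 with 0.404). acta1b stood at 5.02, then 17.5, 23.4 and 16.6, and at 76.4, 29.6 and 51.1 CPM in the mutants (1.46, adjusted p = 0.0773, and 1.75 with 0.474). Mutant replicate 1 was highest and mutant replicate 2 lowest for these 3 genes, and wildtype replicate 1 lay below every other embryo. tpm2 stood at 23.6, then 38.7, 40.6 and 30.2, and at 62.1, 52.0 and 51.0 CPM in the mutants (0.60, adjusted p = 0.0927, and 0.73 with 0.451). The slow muscle gene myl10, at 194 to 490 CPM in mutants and 67.7 to 149 CPM in wildtype replicates 2 to 4, had an adjusted p of 0.101. No muscle gene was called without wildtype replicate 2 or 4 or without mutant replicate 1 or 3, 1 was called without wildtype replicate 3, and 9 without mutant replicate 2.

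Further muscle genes outside the list were called, and they were chosen after their values were seen. Higher were a second actin gene that the files name ACTC1 (4.34 to 8.97 CPM in wildtype replicates 2 to 4, 19.8 to 39.4 CPM in mutants, log2 fold change 2.14), the muscle creatine kinase gene ckma (1.51), klhl40a (1.58), which stabilises thin filaments, the thin filament capping gene tmod4 (1.41), fhl1a (1.40) and the sarcoplasmic reticulum gene srl (1.08). For each of these all 3 mutants exceeded all 4 wildtype embryos. Lower were csrp3, a Z-disc LIM protein, with 2.51 to 3.61 CPM in the 4 wildtype embryos, 0.77 CPM in mutant replicate 3 and no UMI in mutant replicates 1 and 2, cox7a1, a cytochrome c oxidase subunit (-2.48), and the fast myosin heavy chain gene myhz1.1 (-1.36). Actins and myosins are families of near-identical copies, so their separate values are uncertain.

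Few genes of the other cell type lists were called, beside 1.93% of all genes against wildtype replicates 2 to 4. In the blood and vessel list, spi1b, which encodes the myeloid transcription factor PU.1, fell by 0.96 on the log2 scale, from 65.5, 43.2 and 55.5 CPM to 29.1, 26.9 and 28.3 CPM (edgeR adjusted p = 0.0248), and in the cadherin list the endothelial gene cdh5 fell by 0.85, from 21.0, 20.6 and 14.2 CPM to 9.20, 11.4 and 10.2 CPM (0.0662). Wildtype replicate 1 held only 2.61 and 0.34 CPM of these, and with it the log2 fold changes were -0.56 (adjusted p = 0.915) and -0.44 (0.943). tbx20, a T-box factor of the heart field, went from 12, 9.82 and 13.8 CPM to 5.05, 6.08 and 7.19 CPM with 6.16 CPM in wildtype replicate 1, and fell by 0.98 (0.052, and -0.78 with 0.59 with all 4). Of these, spi1b alone was called whichever embryo was left out, while cdh5 was lost without wildtype replicate 2 or 3 or mutant replicate 1 or 3, and tbx20 without wildtype replicate 2 or 4 or mutant replicate 1. In the blood and vessel list, 2 of 17 genes tested had a positive log2 fold change against wildtype replicates 2 to 4, with a median of -0.19, and 9 of 17 had one with all 4 wildtype embryos, with a median of 0.10. Over all genes 47.5% and 45.4% were positive in these comparisons.

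No gene was called in the lists of neural plate and brain, neural crest, hatching gland, notochord, epidermis and periderm, endoderm and germ cells, or among the 43 Hox genes tested. The share called over all genes was 1.93% against wildtype replicates 2 to 4 and 0.0275% with all 4. None of 7 yolk and yolk syncytial layer genes tested was called either, though their median of 0.91 was the highest of any list. It was 0.98 with all 4 wildtype embryos, and 6 and 5 of the 7 were positive. Their summed level overlapped, at 4686 CPM in wildtype replicate 1, 2027 to 2507 CPM in the others and 2235 to 3577 CPM in mutants. Of 17 neural crest genes, 14 had a positive log2 fold change against wildtype replicates 2 to 4 and 6 were higher at an unadjusted p under 0.05, beside 18.1% of all genes in either direction, among them pax3a (0.35, edgeR adjusted p = 0.117). In the comparison with all 4 wildtype embryos, 11 were positive and 1 was higher at that level, and the median went from 0.22 to 0.064. Of 32 neural genes, 7 were higher and 4 lower at that level against wildtype replicates 2 to 4, and 2 and 2 with all 4. The hatching enzyme gene he1.1 had a log2 fold change of -1.12 (adjusted p = 0.103) and the endoderm and vessel gene hhex of -1.52 (0.102), which both missed the threshold. Outside the lists the interneuron progenitor factor dbx1b, chosen after its values were seen, was called higher (8.31 to 9.43 CPM in all 4 wildtype embryos and 16.5 to 22 CPM in mutants).

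The proteases and calcium-binding proteins each held a large change in a gene that is scarce or uneven in wildtype. Of 14 calpain genes tested, capn8 was called higher and capn12 lower against wildtype replicates 2 to 4, where 1.93% of all genes were called, and capn8 alone with all 4 wildtype embryos. capn12 stood at 8.10, 0.98 and 5.60 CPM in wildtype replicates 2 to 4, at 0.10 CPM in replicate 1 and at 0.04, 0 and 0 CPM in the mutants, where a single UMI was found against 214 in wildtype replicates 2 to 4. The pooled ratio of wildtype to mutant was 267 with an exact 95% interval of 47.5 to 10605, which covers counting error only, and the call was lost without mutant replicate 1. Over 18 alternative settings capn12 was called in 16, and its log2 fold change ranged from -9.53 to -0.041. That range mixes unlike measures. Among them are shrunken fold changes (apeglm) and a scale that adds 1 CPM to the mean over cells. s100a11, an S100 calcium-binding protein, stood at 7.01, 3.41 and 1.29 CPM in wildtype replicates 2 to 4, at 0 in replicate 1 and at 0.09, 0.19 and 0.09 CPM in the mutants (edgeR adjusted p = 0.0248). Wildtype replicate 1 was thus far closer to the mutants than to the other wildtype embryos for both genes. None of 28 cathepsin and surface or matrix protease genes tested was called. ablim1b was the only one of 26 actin cytoskeleton genes called, and 8 others were higher at an unadjusted edgeR p under 0.05, beside 18.1% of all genes in either direction.

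In the list of midkines and extracellular matrix, mdkb, a heparin-binding growth factor, was called higher: 78.5, 87.3 and 68.5 CPM in wildtype replicates 2 to 4 and 192, 152 and 161 CPM in the mutants (log2 fold change 1.11, SE 0.13, edgeR adjusted p = 0.00661). Wildtype replicate 1 stood at 350.2 CPM, above every mutant, and with it the log2 fold change was 0.20. The small heat shock gene hspb1 behaved alike, with 879, 820 and 888 CPM against 2074, 1160 and 1664 CPM (0.93, adjusted p = 0.0671) and 4684 CPM in wildtype replicate 1, which turned the log2 fold change to -0.16. hspb1 was the only gene called of 25 heat shock genes tested, beside 1.93% of all genes. The call was lost without any 1 of wildtype replicates 2 to 4 or mutant replicate 3.

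The counts in the next lists stand beside 1.93% of all genes called against wildtype replicates 2 to 4. An unadjusted edgeR p under 0.05 was reached by 18.1% of all genes there and by 7.16% with all 4. Of the 20 p53 target genes tested, sesn1, a stress-induced sestrin, was called and fell by 0.67, from 35.7, 40.5 and 37.3 CPM to 22.9, 23.6 and 25 CPM, with 23.3 CPM in wildtype replicate 1 (edgeR adjusted p = 0.0212, and -0.52 with 0.59 with all 4). Of 23 glycolysis and hypoxia genes, hk2, a hexokinase, was called and fell by 0.81 (0.0988, and -0.63 with 0.699 with all 4), from 11.1, 11.9 and 10.9 CPM to 4.62, 7.87 and 6.94 CPM, and the call was lost without any 1 embryo but mutant replicate 2. The median of the list was 0.39 and 9 members were higher at an unadjusted p under 0.05 (0.23 and 6 members with all 4). Its summed level was 945 CPM in wildtype replicate 1 and 635 to 661 CPM in the others. In mutant replicates 1 to 3 it was 1087, 634 and 838 CPM, so mutant replicate 2 did not exceed wildtype. Of 37 cell cycle genes, 32 had a positive log2 fold change against wildtype replicates 2 to 4, with a median of 0.17, and 14 were higher at that level. Once wildtype replicate 1 was counted, 14 were positive, the median turned to -0.025 and 0 were higher at that level. The 2 called were copies of rrm2, the small subunit of ribonucleotide reductase. ENSDARG00000020711 was lower (84.4, 103 and 99.7 against 36.1, 5.36 and 7.37 CPM) and ENSDARG00000078069 was higher (157, 106 and 145 against 327, 233 and 301 CPM), with 0.35 and 377 CPM in wildtype replicate 1 and log2 fold changes of -2.11 and 0.54 with all 4 (adjusted p = 0.774 and 0.824). Reads may be split between these near-identical copies, and the values are uncertain. The call of the lower copy was lost without any 1 of wildtype replicates 2 to 4 or mutant replicate 3. Over 18 alternative settings that copy was called in 12, and its log2 fold change ranged from -3.94 to -0.050, a range that mixes unlike measures as for capn12.

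None of 85 genes of cytosolic ribosomal proteins tested was called. Of these, 70 had a positive log2 fold change, and 14 were higher and 4 lower at an unadjusted edgeR p under 0.05. Over all genes, 1.93% were called, 47.5% were positive and 18.1% had such a p. The median of the list was 0.23 and became 0.07 when scaled by library totals. That scaling also moved the median of all genes, from -0.02 to -0.16. Counting wildtype replicate 1, 74 were positive, with a median of 0.26. Their summed level was 234158 CPM in wildtype replicate 1, 282481 to 290901 CPM in the others and 287123 to 385646 CPM in the mutants, of which mutant replicate 1 was the highest.

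**Figure D4:**
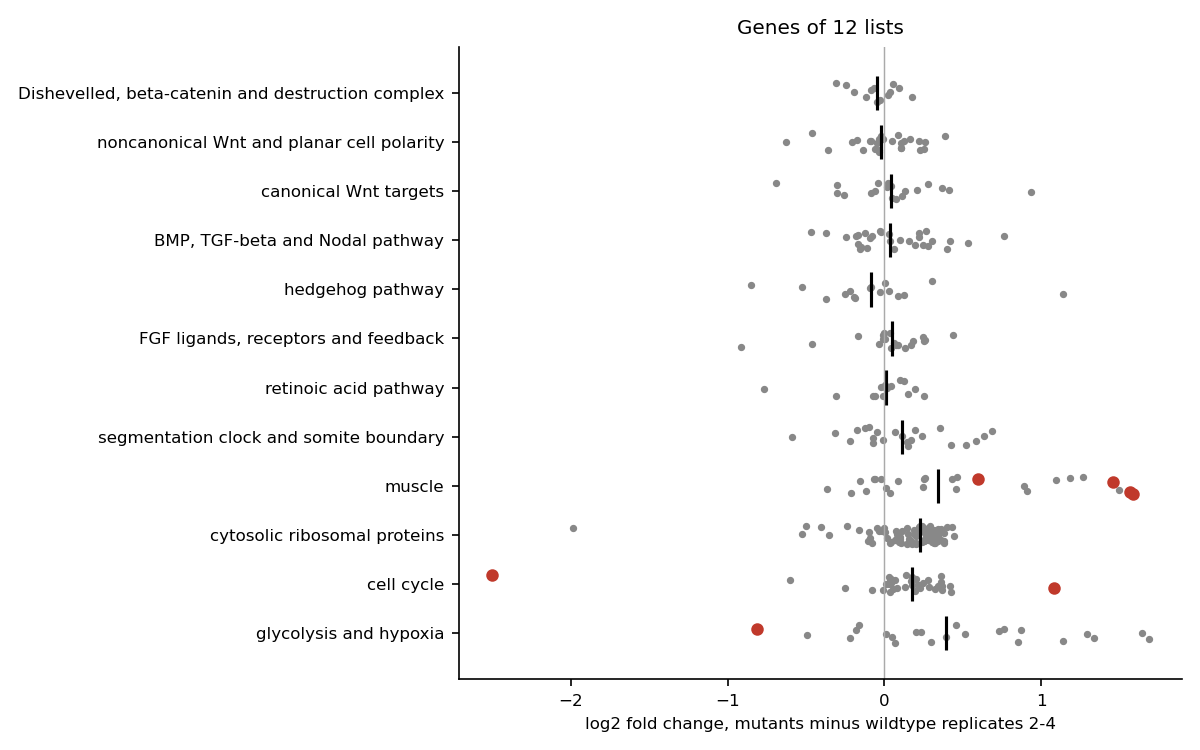
Log2 fold change of dact1/2 mutants over wildtype replicates 2 to 4 for each gene of 12 lists (points), with called genes in red and the median of each list as a black bar. The medians of these 12 lists lie between -0.086 (hedgehog) and 0.39 (glycolysis and hypoxia), and the 7 red points are the 4 sarcomere genes at 0.60 to 1.59, both rrm2 copies at -2.51 and 1.08, and hk2 at -0.81.

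The summed level of each list in each embryo gave 9 of 36 lists whose groups did not overlap against wildtype replicates 2 to 4, all higher in the mutants, and 5 when wildtype replicate 1 was counted. The latter were muscle, calpains, actin cytoskeleton, midkines and extracellular matrix, and immediate early genes. With all 4 wildtype embryos the calpain sum was higher by 32.6 CPM on average in the mutants, and capn8 alone also by 32.6 CPM. That sum therefore reflects capn8 rather than the family. Among single genes, the groups did not overlap for 24.1% of all genes against wildtype replicates 2 to 4 and for 10.1% with all 4, so these counts of lists lie near those shares. The muscle sum was 924 CPM in wildtype replicate 1, 1400, 1543 and 1006 CPM in replicates 2 to 4, and 2663, 1757 and 1804 CPM in the mutants. The actin cytoskeleton sum was 6557, 7139, 7702 and 8332 CPM in wildtype and 10501, 8588 and 9717 CPM in the mutants. The sum of immediate early genes, 644 to 655 CPM in wildtype and 657 to 721 CPM in the mutants, turned lower in the mutants on average when scaled by library totals. With all 4 wildtype embryos, that scaling also moved the median log2 fold change of all genes from -0.03 to -0.146. The germ cell sum varied most within groups, with 3.99 CPM in wildtype replicate 1, 46.4 to 117 CPM in the others and 15.2 to 152 CPM in the mutants.

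**Figure D5:**
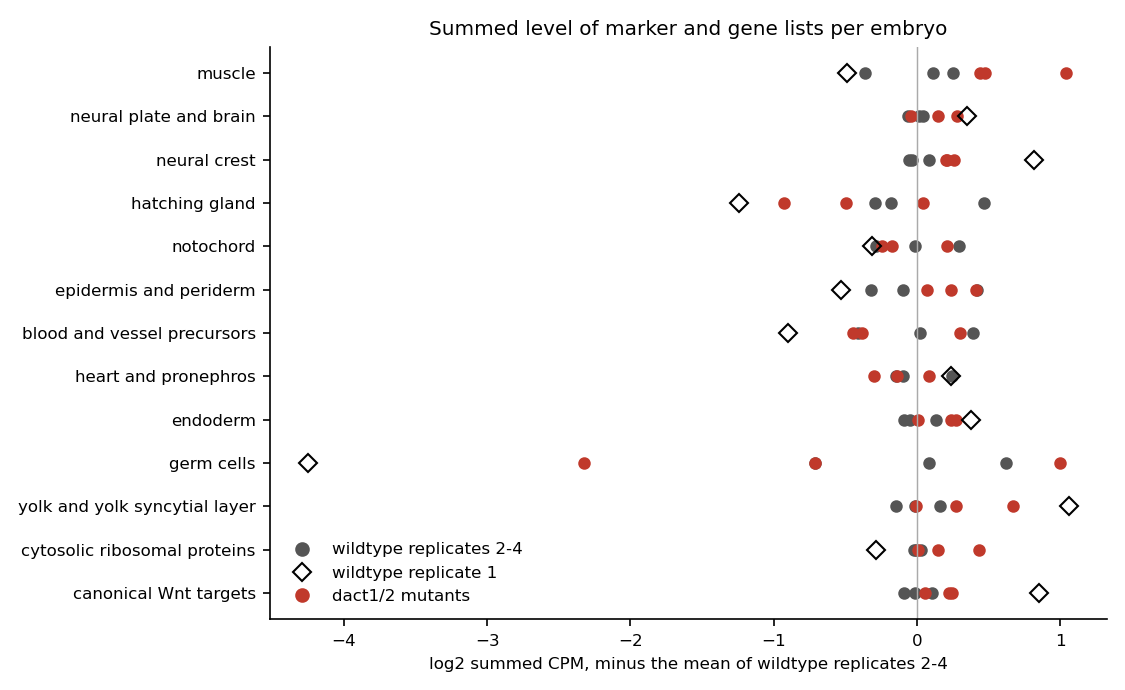
Log2 of the summed CPM of 13 gene lists in each embryo, minus the mean of wildtype replicates 2 to 4, for wildtype (grey, replicate 1 as an open diamond) and dact1/2 mutant (red) embryos. The mutants lie above all wildtype embryos for muscle (1757 to 2663 against 924 to 1543 CPM), and overlap with the 4 wildtype embryos for the other 12 lists.

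The dact1/2 and gpc4 mutants were set beside each other for the genes above in a fit of all 10 embryos. Wildtype levels entered no contrast, but the spread between embryos was estimated over all 10, wildtype replicate 1 included. A fit without that embryo was not run for this contrast. zgc:65851, at 17 to 20.5 CPM in dact1/2 mutants and 4.37 to 5.43 CPM in gpc4 mutants, had an SE of 0.93 here. Its SE was 0.14 in the comparison with wildtype replicates 2 to 4. Of 14926 genes, 40 were called between the 2 mutants (0.268%). Of the 42 genes named by rule, 40 were called against wildtype, and 6 of these were also called between the mutants. Other called genes given above are not in this count. Those 40 rule-named genes were called on the dact1/2 mutant levels that this contrast uses again. The 6 are therefore not to be measured against the share of all genes. capn8, cfap299, gpx1b and lix1l were higher in dact1/2 mutants, by 1.65, 2.01, 1.5 and 0.94 on the log2 scale (edgeR adjusted p = 0.0611, 0.0285, 0.089 and 0.054), and dact1 and nfybb were lower, by -1.16 and -0.81 (0.0753 and 0.089). capn8 stood at 10.7 to 17 CPM and cfap299 at 0.87 to 1.51 CPM in the gpc4 mutants. ftr06, at 1.87 to 2.13 CPM in gpc4 mutants and 2.1 to 3.57 CPM in dact1/2 mutants, had a difference of 0.54 (SE 0.34, adjusted p = 0.771). snrpd3 varied among the gpc4 mutants, at 12.2, 7.61 and 14.4 CPM, and had a difference of -1.10 (SE 0.22, 0.113). BX284696.1 stood at 6.36 to 9.69 CPM in gpc4 mutants against 9.03 to 11.4 CPM, and the sarcomere genes differed by -0.24 to 0.11. Without any 1 mutant embryo of either kind, 0 or 1 of the named genes was called. A gene that missed the threshold is not shown to be alike in both mutants.

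The share of genes called was also counted by chromosome, with no test. The 1.93% over all genes includes genes with no matched chromosome, so it is not quite a like reference. Chromosome 2 had the highest share of any chromosome and was chosen after the values were seen. On chromosome 2, 26 of 604 genes tested (4.30%) were called against wildtype replicates 2 to 4, 15 higher and 11 lower, among them the finTRIM genes ftr06, ftr14 and ftr19. Chromosome 22, which carries capn8, had 13 of 429 (3.03%), chromosome 17, which carries dact1, had 7 of 502 (1.39%), and chromosome 13, which carries dact2, had 6 of 525 (1.14%). Of the 20 tested genes nearest to each, 10 on either side, 2 were called beside dact1 (ttc6 and adpgk2, both lower), 1 beside dact2 (si:dkeyp-2e4.6, higher) and 1 beside capn8 (si:dkeyp-98a7.8, higher).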

How the data were processed

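According to the labels the reads were mapped to GRCz11 by Cell Ranger 6.1.0, and the authors deposited the UMI count per gene and droplet of each embryo without normalization and without removing low-quality droplets. Groups and replicates came from the sample labels. Droplets with at least 1500 UMIs, 750 genes and under 5% mitochondrial UMIs were kept, as in the methods, doublets were not removed, and counts were summed per embryo. The methods test with DESeq2 and apeglm, and here the main test was edgeR 4.0.16 (quasi-likelihood, TMM, filterByExpr, Benjamini-Hochberg over all genes) in R 4.3.3 with limma 3.58.1, while DESeq2 1.42.0 and apeglm 1.24.0 were alternatives. Calls needed an adjusted p below 0.1 and a difference of more than 0.58 on the log2 scale. Adjusted p-values are from edgeR unless DESeq2 is named. UMIs were summed per embryo in Python 3.11.15, exact tests were computed in R, and the main test was checked on simulated data. The simulated embryos had the same spread for every gene and none stood apart from its group. That check therefore does not cover the case of wildtype replicate 1.

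Named genes were dact1, dact2, capn8 and smad1, up to 12 called genes per direction and comparison with the smallest p among those with at least 20 UMIs, and called members of the 36 gene lists. The members and lists were chosen with earlier results of these data known. Of 778 symbols on the lists 18 were not found, and 530 symbols belong to more than 1 gene. Chromosomes came from a RefSeq table matched by symbol (80.9% of genes). No sequences are shown. The alternatives were other scalings, filters, cell criteria and tests, a replicate block, the gpc4 mutants in the fit, and leaving out each embryo. Nothing in the labels says that embryos came from separate clutches, so p-values measure the spread between these embryos only, and intervals cover counting error only.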

Additional observations from a re-analysis of the deposited data

Results flagged for a closer look

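Of 46 sets of wildtype values looked at, 9 had 1 embryo much farther from the rest than the others were from each other, and it was wildtype replicate 1 each time. Chance flags about 1 in 20 sets, but most of these genes were chosen for a small p against wildtype replicates 2 to 4, which favours genes in which those 3 embryos lie close together, so that rate does not apply here. That embryo was high for BX284696.1 (1.67 CPM), zgc:65851 (53.9 CPM), si:ch73-144d13.4 (28 CPM), gpr19 (15.6 CPM), rex1bd (37.7 CPM), hspb1 (4684 CPM) and mdkb (350.2 CPM), all of which were called higher in the mutants against wildtype replicates 2 to 4. It was low for hk2 (6.01 CPM against 10.9 to 11.9), which was called lower in the mutants. For nfybb it stood at 12.4 CPM against 11.1 to 11.3 CPM, a small gap beside the 5.14 to 5.70 CPM of the mutants.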

How the results depend on the processing

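With all 4 wildtype embryos the count of 4 calls became 2 without normalization factors, 146 with the DESeq2 Wald test (77 higher, 69 lower), 100 with apeglm, 15 without a filter on low counts and 22 with the gpc4 mutants in the fit. Leaving out 1 embryo gave 0 to 276 calls: 276 without wildtype replicate 1, 1 without wildtype replicate 3 and 0 without any other embryo. Against wildtype replicates 2 to 4 the 276 calls became 456 with the DESeq2 Wald test (253 shared), 561 without a filter and 151 with the gpc4 mutants in the fit, and leaving out 1 embryo gave 105 to 784 (105, 124 and 185 without wildtype replicates 2, 3 and 4, and 203, 784 and 154 without mutant replicates 1, 2 and 3). Scaling by library totals gave 395 calls, of which 97 were higher and 298 lower, with the median of all genes moved to -0.16. The 6 named genes called against gpc4 mutants became 11 with DESeq2, 3 after thinning and 0 to 1 without 1 embryo. The dact1 difference against wildtype replicates 2 to 4 was -3.23 CPM (exact permutation p = 0.1, the smallest possible). The dact2 log2 fold change of -0.093 ranged from -0.19 to 0.13 when 1 embryo was left out (0.13 without wildtype replicate 1 and 0.018 without mutant replicate 1), and that of 0.13 against replicates 2 to 4 turned to -0.000106 with library totals and -0.093 with replicate 1 added, as its CPM difference turned to 4.17 (exact permutation p = 0.4). hspb1 turned to -0.16 with replicate 1 added. The cause of these changes was not tested.

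Same-numbered embryos showed little shared deviation from their group means (correlations 0.0656, 0.0605 and -0.10). The highest correlation of any pair was 0.149, for wildtype replicate 3 with mutant replicate 2. Such correlations cannot tell whether embryos shared a batch, so pairing stays unknown. With a replicate block the calls were 0 with all 4 wildtype embryos, 204 against replicates 2 to 4 (114 shared with the 276) and 0 of the named genes against gpc4 mutants. Against replicates 2 to 4, wildtype replicate 4 and mutant replicate 1 have no same-numbered partner, so that block rests on replicate numbers 2 and 3.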
